A study of Mus musculus with 96 samples.

Results

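The immediate early genes are described here by 10 members: the AP-1 subunits Fos, Fosb, Jun and Junb, the zinc finger factors Egr1, Egr2 and Egr3, the activity-induced transcription factors Npas4 and Nr4a1, and Arc, a cytoskeleton-associated protein of synapses. Their peaks were those whose annotated gene symbol was one of these in any of 6 tables, each holding one antibody in one nuclear fraction. There were 23 such peaks among 22815, and each of the 10 genes, of 13117 with a peak, had at least 1. Nuclei came from the hippocampus of C57BL/6N mice aged 6 months and were sorted on NeuN, a nuclear protein of neurons, into a NeuN+ (neuronal) and a NeuN- (non-neuronal) fraction. Chromatin was precipitated with antibodies against H3K4me3, a histone mark of active promoters, H3K27me3, the mark laid down by Polycomb repressive complex 2 (PRC2), and Suz12, a subunit of that complex. Wild type mice (WT) were set beside mice without Mutyh (Mutyh-/-), without Ogg1 (Ogg1-/-) or without both (DKO), giving 4 genotypes with 3 replicates each per table, or 72 libraries. Mutyh and Ogg1 encode glycosylases that start the repair of oxidised bases. No driver that limits the loss to a cell type is named for either gene, and the DKO came from crossing the single knockouts. Male mice were pooled within each sample, so the spread between replicates is that between pools.

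Immediate early genes are transcribed within minutes of a stimulus, without the need for new protein synthesis, and most encode transcription factors that act on later waves of genes. In hippocampal neurons they are induced by calcium entry during synaptic activity, through kinases that act on factors such as CREB, which binds cAMP response elements (CREs), and SRF, which binds CArG boxes. Their promoters are generally kept in an open state before any stimulus, and their transcripts are widely used as a sign of recent neuronal activity and memory formation.

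Promoter sequences are shown for the 5 members whose neuronal H3K4me3 peak overlapped the 300 bases around the gene start or lay within 38 bases of them. They are the RefSeq sequences of GRCm38.p6, from 250 bases before to 50 bases after the start, written 5′ to 3′ on the strand of the gene. Capitals mark the CRE half-site TGACG, read on either strand, and the CArG box. The windows are chr12:85473640-85473939 for Fos (plus strand), chr7:19309996-19310295 for Fosb (minus strand), chr10:67537680-67537979 for Egr2 (plus strand), chr19:4989922-4990221 for Npas4 (minus strand) and chr15:101266596-101266895 for Nr4a1 (plus strand).
Fos: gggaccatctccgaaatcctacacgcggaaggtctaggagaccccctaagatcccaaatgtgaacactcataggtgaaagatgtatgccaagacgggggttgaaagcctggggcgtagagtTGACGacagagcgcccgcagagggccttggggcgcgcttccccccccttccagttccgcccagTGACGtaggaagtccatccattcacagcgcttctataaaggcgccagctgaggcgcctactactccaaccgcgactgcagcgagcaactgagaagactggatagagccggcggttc
Fosb: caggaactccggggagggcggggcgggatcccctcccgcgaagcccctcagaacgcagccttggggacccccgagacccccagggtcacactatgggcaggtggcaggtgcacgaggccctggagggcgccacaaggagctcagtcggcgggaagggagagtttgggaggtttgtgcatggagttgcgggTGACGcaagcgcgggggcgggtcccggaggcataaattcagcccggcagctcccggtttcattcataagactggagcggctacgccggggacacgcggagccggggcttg
Egr2: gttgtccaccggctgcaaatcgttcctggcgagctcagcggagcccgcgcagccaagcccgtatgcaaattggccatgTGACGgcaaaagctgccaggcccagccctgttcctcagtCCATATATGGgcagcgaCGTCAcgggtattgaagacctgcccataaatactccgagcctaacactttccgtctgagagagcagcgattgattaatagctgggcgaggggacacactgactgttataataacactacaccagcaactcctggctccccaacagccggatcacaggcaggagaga
Npas4: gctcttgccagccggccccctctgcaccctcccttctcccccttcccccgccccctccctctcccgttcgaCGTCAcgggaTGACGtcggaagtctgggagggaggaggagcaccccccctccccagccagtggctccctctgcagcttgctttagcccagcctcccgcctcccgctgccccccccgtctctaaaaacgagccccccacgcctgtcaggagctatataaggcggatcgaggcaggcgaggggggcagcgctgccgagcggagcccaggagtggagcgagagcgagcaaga
Nr4a1: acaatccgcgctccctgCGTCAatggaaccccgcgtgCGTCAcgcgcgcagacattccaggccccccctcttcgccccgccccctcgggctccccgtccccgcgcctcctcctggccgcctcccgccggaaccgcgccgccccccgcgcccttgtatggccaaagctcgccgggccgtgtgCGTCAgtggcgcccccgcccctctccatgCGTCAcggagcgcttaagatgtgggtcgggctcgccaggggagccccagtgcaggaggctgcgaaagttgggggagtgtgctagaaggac
The Fosb peak covered all 300 bases of its window, the Egr2 peak 152 bases and the second Nr4a1 peak 88 bases, while 22 bases separated the Fos peak and 38 the Npas4 peak from theirs. Promoter windows of this length were given for 7 members, and TGACG occurred in 6 of them (Fos, Fosb, Junb, Egr2, Npas4 and Nr4a1), against 20.8% of all 32851 windows. Nr4a1 held 4 such half-sites, Fos, Egr2 and Npas4 held 2 each, and Fosb and Junb 1 each. In Fos the nearer one began 66 bases before the start. A CArG box was present in Egr2 alone of the 7, 133 bases before the start, and in 1.63% of all windows. The whole CRE TGACGTCA was in none of the 7 and in 1.79% of all windows, and the AP-1 motif TGANTCA in none of the 7 and in 7.81%. Sequence farther than 250 bases before the start was not searched, so a missing motif is missing from the window only. Egr2 was taken with 1 of its 5 windows, the nearest to its peak.

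H3K4me3 in NeuN+ nuclei had 16 peaks of the members, at least 1 for each of the 10 genes, and each gene had one annotated as promoter. In NeuN- nuclei H3K4me3 had 2, at Jun and Egr1, and H3K27me3 had 5, at Egr2, Egr3 and Npas4. The H3K27me3 table of NeuN+ nuclei and both Suz12 tables held 0 peaks of the members, nor any peak of another gene within 20 kb of a member's start. Among the 11160 genes with a neuronal H3K4me3 promoter peak, 26% also had an H3K4me3 promoter peak in NeuN- nuclei, and 2 of the 10 members did. The share with an H3K27me3 promoter peak was 3.22% in NeuN+ nuclei, where 0 of 10 members had one, and 3.75% in NeuN- nuclei, where Egr2 and Egr3 did. In NeuN- nuclei, 5.25% of these genes had an H3K27me3 peak of any position, against 3 of 10 members. A Suz12 promoter peak was found at 1.66% of these genes in NeuN+ nuclei. With only 10 genes, whether these counts differ from the shares was not tested. An absent peak means that no consensus region was called, not that the mark was absent.

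Reads in peaks per library ran from 96023 to 548706 in H3K4me3 NeuN+, from 39320 to 120004 in H3K4me3 NeuN- and from 19132 to 78250 in H3K27me3 NeuN-. The shallowest of the first group was DKO replicate 1 and the deepest Ogg1-/- replicate 3. The latter was also the highest of its genotype at 13 of the 16 member peaks and at 78.9% of all peaks. H3K4me3 promoter peaks were present in NeuN+ nuclei at 7 of 8 neuronal markers (not Gad2), at 2 of 6 astrocyte markers (Slc1a3 and Sox9) and at 0 of 14 oligodendrocyte, microglial and endothelial markers. In NeuN- nuclei they were present at 0 of 8 neuronal markers and at 1 of 20 glial and endothelial markers, Olig1. The glial origin of the NeuN- fraction could thus be checked by few of its own markers.

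**Figure D1:**
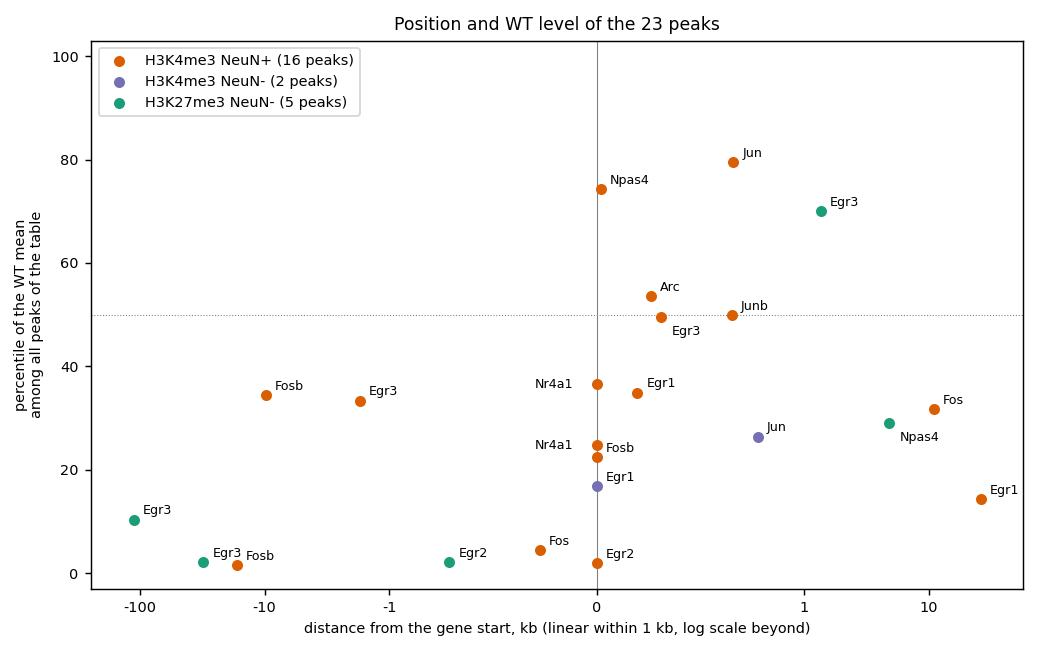
Position of the 23 peaks (distance from the gene start as annotated in the files, in kb, linear within 1 kb and on a log scale beyond) against the percentile of the WT mean among all peaks of the same table. Each point is 1 peak and the dotted line is the median peak; Jun and Npas4 lay highest in neuronal H3K4me3, and the Fos, Egr2 and farthest Fosb peaks lay at percentiles 4.43, 1.87 and 1.54.

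Distances are those of the deposited annotation, from the nearest edge of a peak to the transcript start it names, which can differ from the first start of the gene. Values are normalised read counts, called signal here, in windows of 401 bp, so levels of peaks of one table need no correction for length. Placement differs between the windows and was not corrected for. For neuronal H3K4me3 the centre of the promoter window lay -473 bp from the GENCODE gene start at Fos, 859 bp at Jun and 2553 bp at Egr2. In WT NeuN+ nuclei the median of the 16 peaks stood at percentile 33.9 of all 12628 H3K4me3 peaks. Jun was highest, with a WT signal of 30.7 ± 6.08 (SD, n = 3; percentile 79.5), followed by Npas4 with 29.2 ± 7.32 (percentile 74.3). Arc (24.2 ± 16.7), Junb (23.4 ± 8.53) and the Egr3 peak 311 bp past its annotated start (23.3 ± 1.84) came next, near the median of all peaks. Each of these 5 means lay within 1 SD of its neighbour in this order. The promoter peaks of Fos (8.75 ± 3.66, percentile 4.43) and Egr2 (5.97 ± 4.74, percentile 1.87) were the lowest of the promoter peaks. The SDs of WT, up to 16.7 at Arc, do not allow a finer order.

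Among the AP-1 genes, Fos, the founding partner of Jun in the AP-1 dimer, had 2 neuronal H3K4me3 peaks. The promoter peak (chr12:85473217-85473617) ended 273 bp upstream of the start and held 12.9, 5.85 and 7.54 in WT, 10.9, 8.27 and 4.38 in Mutyh-/-, 9.52, 5.13 and 13.1 in Ogg1-/-, and 6.77, 13.7 and 13.6 in DKO. All 4 genotypes overlapped, on 3 to 18 reads per library. The distal peak (chr12:85485926-85486326), in intergenic sequence 11 kb beyond the start, was higher than the promoter peak in every genotype, with means of 18.5, 16.2, 18.9 and 15.1 in WT, Mutyh-/-, Ogg1-/- and DKO, and its genotypes overlapped too. Its GC content was 70.1%, against 56.4% at the promoter peak.

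Fosb, a second Fos-family subunit, was the only member with 3 neuronal peaks, and 5 of the 10 members had more than 1, against 8.08% of the 11512 genes in this table. The promoter peak (chr7:19309914-19310314) lay across the start, partly upstream and partly in the first exon. It held 14.1, 19.5 and 14.0 in WT and 13.5, 27.3 and 15.2 in DKO. Mutyh-/- samples held 15.3, 19.3 and 31.5 and Ogg1-/- samples 11.9, 11.3 and 36.9, so a single library raised the mean of each knockout and the groups overlapped. The other 2 peaks lay upstream, in D830036C21Rik, a long intergenic non-coding RNA gene in GENCODE vM21, so they can equally belong to that gene.

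The nearer of these upstream peaks (chr7:19319757-19320157) was in an exon of D830036C21Rik, 9.7 kb from the Fosb start. Here the signal was 28.3, 7.81 and 21.5 in WT, 16.3, 12.9 and 10.5 in Mutyh-/-, 11.9, 15.4 and 20.8 in Ogg1-/-, and 4.51, 4.02 and 14.4 in DKO. The pair of lowest DKO libraries, with 2 and 5 reads, lay below all WT libraries, while the third lay inside the WT range. The log2 fold change of DKO against WT was -1.26 (SE 0.62, 95% interval -2.52 to 0.01, adjusted p = 1.00 in limma), the strongest by unadjusted p of the 48 comparisons of a knockout with WT at the 16 peaks. It fell short of the definition of a changed peak, which asks for an absolute log2 fold change over 0.5 together with an unadjusted p under 0.05 in limma. Under 21 alternatives, the sign was the same in 21 and the definition was met in 8, while the adjusted p lay between 0.845 and 1.00; leaving out 1 library moved the Fosb change between -0.90 (without WT replicate 1) and -1.77 (without WT replicate 2 or DKO replicate 3).

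The farther peak (chr7:19326765-19327165), 16.7 kb upstream in an intron of D830036C21Rik, was the lowest of all 16 in WT, with 6.43, 8.78 and 1.08. All 3 Ogg1-/- samples were higher, at 15.5, 13.3 and 16.9, and did not overlap WT. How many of all peaks separate from WT in this way was not counted. DKO samples held 0, 20.9 and 12.9, the 0 coming from the shallowest library. The Fosb log2 fold change for Ogg1-/- was 1.60 (95% interval -0.24 to 3.44, adjusted p = 1.00 in limma), and it passed the definition under 3 of 21 alternatives. Without DKO replicate 1 the Ogg1-/- change passed, and that of DKO became 1.71 in place of 0.34 and passed as well. Over all 21 the Fosb values ran from 0.92 to 2.04 for Ogg1-/- and from -0.51 to 1.71 for DKO.

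Jun and Junb, the Jun-family subunits, carried their neuronal peaks inside the single exon, 659 and 651 bp from the start. Jun (chr4:95051163-95051563) held 27, 27.3 and 37.7 in WT, 27.2, 26.6 and 22.8 in Mutyh-/-, 26.2, 20.5 and 41.5 in Ogg1-/-, and 36.1, 33.8 and 27.3 in DKO. Its log2 fold changes lay between -0.24 and 0.08, with intervals that reached from -1.03 to 0.87. The CpG observed-to-expected ratio of this Jun peak was 1.06, higher than at the other 15, and the window overlapped an exon of the antisense gene Junos, which ChIP reads cannot separate from Jun.

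Junb (chr8:84977667-84978067) held 29.6, 13.7 and 26.9 in WT. Mutyh-/- samples were at 24, 27.6 and 45.6, Ogg1-/- at 35.7, 20.5 and 42.3, and DKO at 22.6, 33.8 and 25. The knockout means of 32.4, 32.8 and 27.1 were above the WT mean of 23.4, with overlapping groups. The log2 fold changes of 0.47, 0.48 and 0.26 did not pass, although that of Junb in Mutyh-/- did after TMM scaling (0.54).

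Egr1, an activity-induced zinc finger activator, had a promoter peak (chr18:34861403-34861803) 196 bp from the start of its transcript. WT samples held 9.0, 25.4 and 23.7, Mutyh-/- 15.3, 25.7 and 37.7, Ogg1-/- 21.4, 24.6 and 34.6, and DKO 15.8, 28.1 and 41.7. All 3 knockout means (26.2, 26.9 and 28.5) exceeded the WT mean of 19.4, where WT replicate 1 was low, and every knockout overlapped WT. The log2 fold changes were 0.46, 0.55 and 0.56, the last with an interval from -0.40 to 1.52.

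A second Egr1 peak (chr18:34887330-34887730) lay 26.1 kb beyond the start in intergenic sequence. It held 7.72, 13.7 and 18.3 in WT, 15.3, 17.5 and 20.1 in Mutyh-/-, 20.2, 17.4 and 29.2 in Ogg1-/-, and 6.77, 9.65 and 16.7 in DKO. Both single knockouts had higher means than WT and DKO had a lower one, and all 3 DKO samples were below the lowest Ogg1-/- sample. How many of all peaks separate DKO from Ogg1-/- in this way was not counted. The non-additive effect, that is DKO minus Ogg1-/- minus Mutyh-/- plus WT on the log2 scale, was -1.46 (adjusted p = 1.00 in limma) and did not pass. It passed under 6 of 20 alternatives, among them leaving out WT replicate 3 (-1.72), Ogg1-/- replicate 2 (-1.61) or DKO replicate 3 (-1.78), and over all 20 the Egr1 effect ran from -1.78 to -1.14.

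Egr2, an Egr factor also known for its role in myelinating cells, had the weakest promoter peak (chr10:67537828-67538228), over an exon inside the gene that the annotation takes as a transcript start. The values were 1.29, 5.85 and 10.8 in WT, 4.36, 8.27 and 2.63 in Mutyh-/-, 0, 9.23 and 3.08 in Ogg1-/-, and 0, 14.5 and 6.82 in DKO. Replicates within a genotype spanned the whole range between genotypes, on 0 to 18 reads. The intervals of the Egr2 log2 fold changes ran from -2.97 to 2.24, so a change of several fold in either direction could not have been detected.

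Egr3, a target of Egr1 in neurons, had 2 neuronal H3K4me3 peaks. The one 311 bp past its annotated transcript start, in the intron (chr14:70078106-70078506), held 21.9, 25.4 and 22.6 in WT, 20.7, 17.5 and 21 in Mutyh-/-, 32.1, 27.7 and 37.7 in Ogg1-/-, and 22.6, 29.8 and 24.3 in DKO. All Mutyh-/- samples were below and all Ogg1-/- samples above the WT samples, while DKO overlapped WT. The share of all peaks with such separation was not counted. Its own SD on the log2 scale, 0.17 within genotypes, was at percentile 0.0317 of all peaks of this table. The Egr3 log2 fold changes of -0.23 (95% interval -1.03 to 0.57) and 0.46 (-0.34 to 1.26) for Mutyh-/- and Ogg1-/- did not pass, both being under the 0.5 limit in size. The upstream peak (chr14:70075090-70075490), 1.7 kb before the start, had means of 19.0, 14.6, 17.2 and 18.8 and overlapping groups.

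Npas4, a neuron-specific factor induced by calcium entry, carried a strong promoter peak (chr19:4989483-4989883), 21 bp past its annotated transcript start. WT samples held 36.0, 21.5 and 30.2, Mutyh-/- 20.7, 23 and 21.9, Ogg1-/- 15.5, 17.4 and 40.0, and DKO 27.1, 24.9 and 29.6. The Mutyh-/- and DKO libraries lay close together, and the Ogg1-/- mean rested on the high replicate 3. The Npas4 log2 fold changes were -0.37, -0.35 and -0.07, with intervals within -1.23 to 0.78.

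Nr4a1, an orphan nuclear receptor, had promoter peaks at 2 transcript starts 12.7 kb apart. At the upstream one (chr15:101254153-101254553), the signal was 28.3, 12.7 and 18.3 in WT, 15.3, 20.2 and 20.1 in Mutyh-/-, 23.8, 20.5 and 40.8 in Ogg1-/-, and 24.8, 29.8 and 27.3 in DKO. DKO and Ogg1-/- means (27.3 and 28.4) were above the WT mean of 19.8, with log2 fold changes of 0.51 and 0.51 that did not pass. The downstream one (chr15:101266808-101267208), whose sequence is shown above, had means of 16.5, 16.4, 19.1 and 14.6 and overlapping groups.

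Arc (chr15:74671904-74672304), the effector gene of the list, carried its peak in the coding exon, 264 bp from the start. It held 42.4, 9.76 and 20.5 in WT, 22.9, 29.4 and 23.7 in Mutyh-/-, 25, 10.3 and 22.3 in Ogg1-/-, and 6.77, 31.4 and 23.5 in DKO. The WT samples alone spanned the values of almost all other samples, from 10 to 33 reads. The log2 fold changes for Arc were 0.28, -0.19 and -0.24, with intervals within -1.34 to 1.38.

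**Figure D2:**
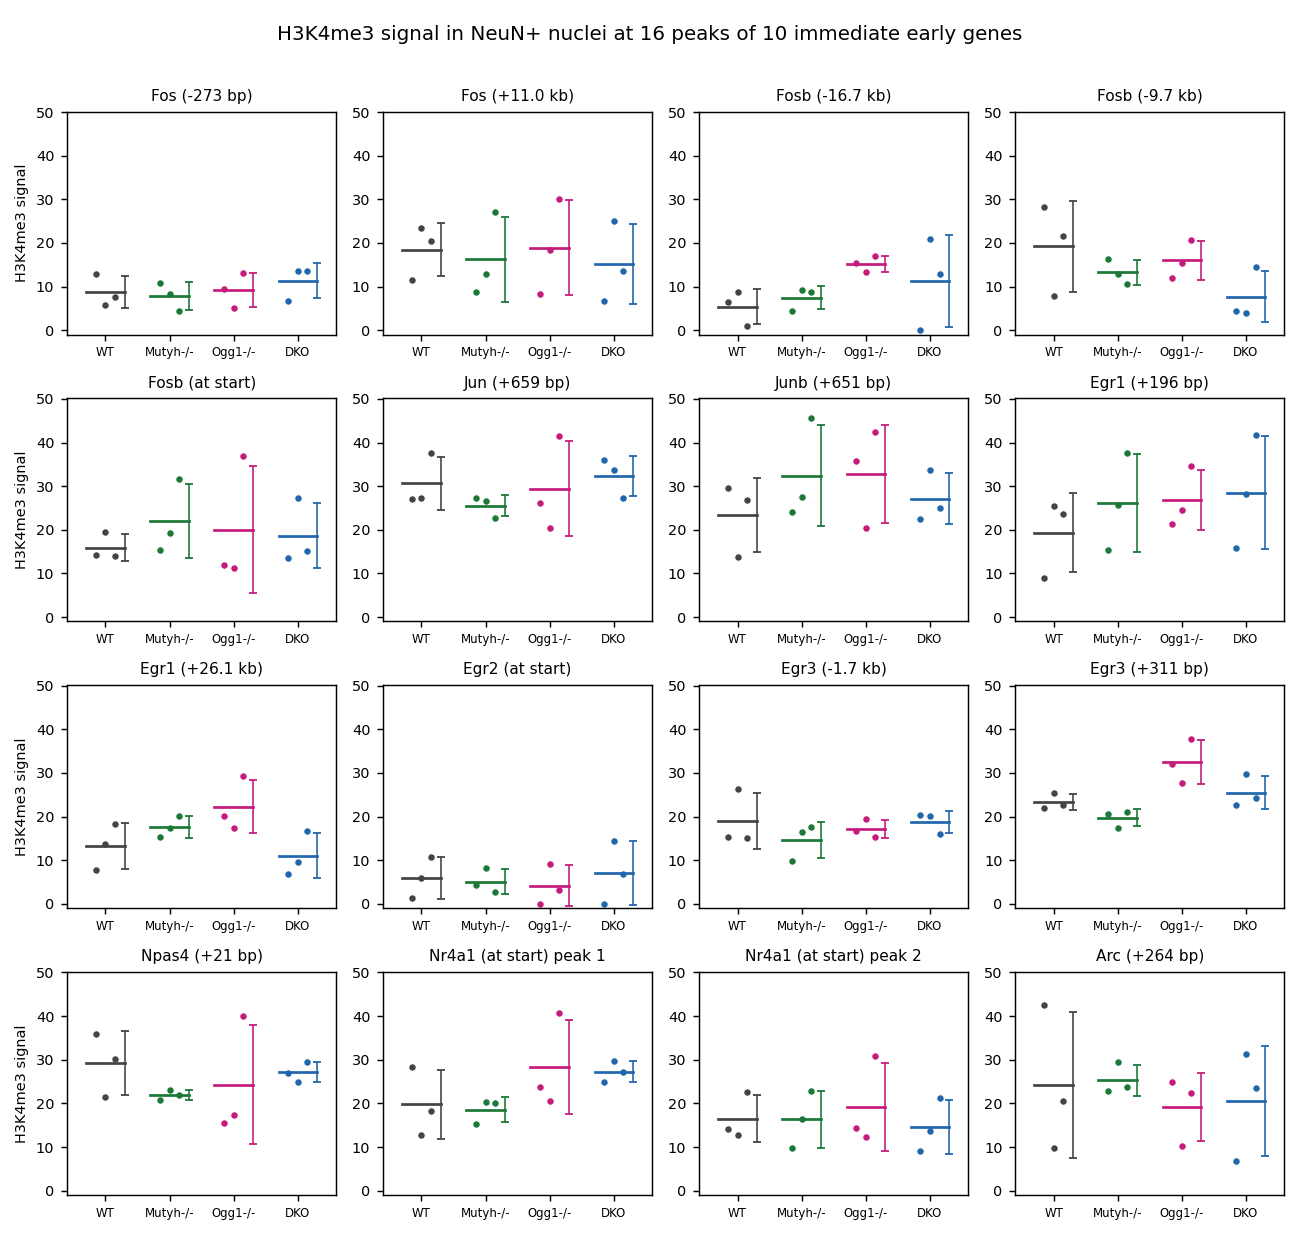
H3K4me3 signal (normalised reads per peak, one linear scale for all panels) in NeuN+ nuclei at the 16 peaks. Distances are from the annotated transcript start. Points are the 3 replicates of each genotype, thick lines the means and thin bars 1 SD. The Ogg1-/- samples stand above WT at the Egr3 peak at 311 bp and the Fosb peak 16.7 kb upstream, and elsewhere the genotypes mostly overlap. The share of all peaks with such separation was not counted.

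Over all 16 neuronal H3K4me3 peaks, 0 passed the definition of changed in Mutyh-/-, where 0.911% of all 12628 peaks did. In Ogg1-/- the count was again 0 of 16, with 0.966% of all peaks changed, and in DKO 0 of 16, with 1.46%. Counts of 0 are what such background shares give in 16 peaks. These shares depend on the scaling. The median signal of all peaks ran from 15.8 (DKO replicate 1) to 33.1 (Ogg1-/- replicate 3) between libraries. Limma with TMM factors called 4.36% over all peaks and knockouts, with 2 calls in the members' 48 comparisons. At an unadjusted p under 0.05 in limma the count was also 0 of 16 in each knockout, and over the 48 comparisons edgeR with TMM factors made 2 calls, where it called 3.95% over all peaks and knockouts, and DESeq2 made 1, where it called 2.93%. The median log2 fold change of the 16 was -0.03 in Mutyh-/-, 0.09 in Ogg1-/- and 0.05 in DKO, beside -0.07, 0.08 and -0.02 over all peaks. The members' summed signal was 292 ± 28.5 in WT, 290.1 ± 48.7 in Mutyh-/-, 336 ± 104 in Ogg1-/- and 304 ± 71.8 in DKO (SD, n = 3). SEs of the 48 fold changes ran from 0.39 to 1.11 with a median of 0.53, and a difference had to exceed about 2 of its SEs to pass. The non-additive effect passed at 0 of the 16, where 0.839% of all peaks passed. The 3 comparisons share the WT samples and are not independent.

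**Figure D3:**
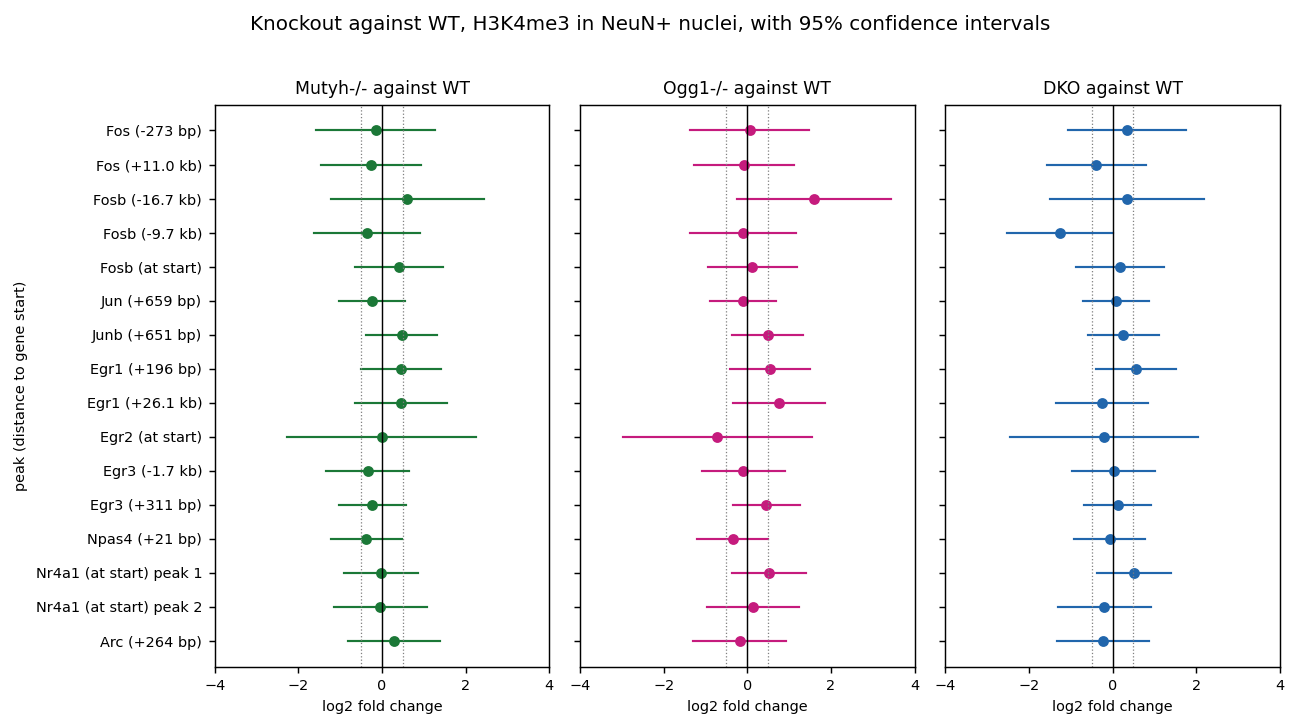
Log2 fold change of each knockout against WT at the 16 neuronal H3K4me3 peaks. Points are limma estimates on log2(signal + 1), lines 95% confidence intervals and dotted lines the 0.5 limit; every interval includes 0, the closest being the Fosb peak 9.7 kb upstream in DKO, from -2.52 to 0.01.

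In NeuN- nuclei, Jun and Egr1 were the members with H3K4me3. The Jun peak (chr4:95051044-95051444), 778 bp inside the gene, held 15.2, 0.788 and 3.55 in WT, 9.51, 6.05 and 0 in Mutyh-/-, 6.93, 3.19 and 18.5 in Ogg1-/-, and 14.9, 7.86 and 13.4 in DKO. WT samples, on 11, 1 and 3 reads, overlapped every knockout. The log2 fold change of Jun in DKO, 1.31 (SE 1.01, 95% interval -0.70 to 3.33, adjusted p = 0.999 in limma), was the strongest by unadjusted p at these 2 peaks. It rested on single WT libraries, at 2.15 without WT replicate 1 and 0.56 without WT replicate 2.

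The Egr1 peak (chr18:34861036-34861436) lay on the transcript start and held 2.77, 11 and 2.36 in WT, 4.76, 4.32 and 0 in Mutyh-/-, 7.92, 5.59 and 9.94 in Ogg1-/-, and 17.6, 5.0 and 4.47 in DKO. Groups overlapped in each comparison. Of these 2 peaks, 0 passed in Mutyh-/- (2.94% of all 3270 peaks did), 0 in Ogg1-/- (3.36%) and 0 in DKO (2.29%), and the non-additive effect passed at 0 of 2 (3.03%). At an unadjusted p under 0.05 it was also 0 of 2 in each.

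Both genes had overlapping H3K4me3 peaks in the 2 fractions, so the difference of a knockout's effect between neuronal and non-neuronal nuclei could be tested. It passed in 0 of 6 comparisons, where 2.30%, 1.80% and 1.80% of 3000 peak pairs passed for Mutyh-/-, Ogg1-/- and DKO. The differences ran from -1.23 for Jun in DKO (95% interval -3.37 to 0.90) to 1.23 for Egr1 in Mutyh-/- (-0.89 to 3.34), wide enough to hold opposite effects. These intervals take the libraries of the 2 fractions as independent.

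H3K27me3 in NeuN- nuclei had peaks assigned to Egr2, Egr3 and Npas4, on few reads. At the Egr2 promoter (chr10:67534366-67534766), 709 bp upstream of the start, the 3 WT samples held 0, Mutyh-/- samples 6.73, 0 and 5.78, Ogg1-/- samples 11.4, 0 and 1.19, and DKO samples 8.67, 0 and 0. Each knockout had 1 or 2 samples at 0 like WT, so the groups overlapped. A count of 0 allows up to 3 reads per library, a mean WT signal of 3.31, and the Egr2 means of Mutyh-/- (4.17), Ogg1-/- (4.20) and DKO (2.89) lay close to this floor. The fitted log2 fold changes did not pass. Leaving out 1 library of the knockout moved that of Mutyh-/- between 1.38 and 2.86 and that of Ogg1-/- between 0.57 and 2.38, and each passed in 3 of 21 alternatives, namely without replicate 2, the sample at 0, and in both edgeR fits. With 0 reads in all WT samples, this region could enter the table only through knockout libraries. These passes therefore partly restate that choice of regions and are given as a description.

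Egr3 had 3 peaks of H3K27me3. The one at its promoter (chr14:70079156-70079556), 1.4 kb past the annotated transcript start in the coding exon, was at percentile 70.0 of this table in WT and the strongest of the 5. It held 6.62, 3.32 and 4.61 in WT, 13.5, 7.39 and 1.16 in Mutyh-/-, 11.4, 1.63 and 15.5 in Ogg1-/-, and 24.3, 0 and 14.8 in DKO, and each knockout had samples on both sides of WT. The log2 fold changes of this Egr3 peak, 0.17, 0.51 and 0.37, did not pass.

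Both other peaks that were assigned to Egr3 lay inside Pebp4, a neighbouring gene, and are nearer to Egr3 only by transcript start. The farther one (chr14:69964447-69964847), 112.4 kb upstream in an intron of Pebp4, held 0 to 5 reads per library, and its genotypes overlapped.

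The peak 31.0 kb upstream (chr14:70045794-70046194), over a coding exon of Pebp4, was the 1 member peak that passed in any knockout. Its signal was 0 in all 3 WT samples, 9.61, 8.45 and 4.62 in Mutyh-/- (10, 8 and 4 reads), 3.51, 0 and 2.38 in Ogg1-/-, and 0, 0 and 1.14 in DKO. The Mutyh-/- samples lay above all 9 others, and how many of all peaks separate in this way was not counted. Set against a WT floor of 3 reads per library, the observed Mutyh-/- mean of 7.56 was 2.29-fold higher. That ratio leaves out the error of the Mutyh-/- mean itself, so it is no lower bound of the fold. The fitted log2 fold change was 3.05 (SE 1.05, 95% interval 0.98 to 5.11, adjusted p = 0.998 in limma), and since it depends on the added 1 it is no estimate of the fold itself. With 0 reads in WT and 1 in DKO, this region could enter the table only through the groups where it was high, so the call partly restates that choice of regions and is given as a description. The non-additive effect at this Egr3 peak was -3.99 (SE 1.49, adjusted p = 1.00 in limma), as the DKO samples were near WT. In this table, 71 of 1698 peaks (4.18%) had 0 reads in all 3 WT samples, and the Egr2 and this Egr3 peak were among them.

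Npas4 had its H3K27me3 at the far end of the gene, at the last coding exon and the end of the transcript (chr19:4984717-4985117), 4.8 kb from the start. Values were 3.97, 1.66 and 0 in WT, 8.65, 2.11 and 0 in Mutyh-/-, 4.38, 0 and 1.19 in Ogg1-/-, and 7.80, 9.25 and 2.27 in DKO. A pair of DKO samples was above all WT samples and the third was not. The Npas4 log2 fold change in DKO, 1.49 (95% interval -0.77 to 3.75), did not pass.

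Of the 5 H3K27me3 peaks, 1 passed in Mutyh-/-, where 2.00% of all 1698 peaks did. In Ogg1-/- 0 of 5 passed (4.18% of all peaks) and in DKO 0 of 5 (2.30%). The non-additive effect passed at 1 of 5 (2.47%). At an unadjusted p under 0.05 the counts were the same, and edgeR with TMM factors made 3 calls in the 15 comparisons, at 2 peaks, where it called 4.10% over all peaks and knockouts. The members' median log2 fold change was 0.45, 0.61 and 0.37 in Mutyh-/-, Ogg1-/- and DKO, while all peaks of this table had medians of 0.29, 0.58 and 0.41, so most of the shift was shared with the table. After TMM scaling the medians over all peaks were 0.12, 0.24 and 0.20. The summed signal of the 5 peaks was 7.49 ± 2.85 in WT, 24 ± 15.2 in Mutyh-/-, 19.4 ± 16.8 in Ogg1-/- and 23.4 ± 15.7 in DKO (SD, n = 3), the lowest Ogg1-/- sample being at 1.63, below WT. The Egr2 peak and the Egr3 peak 31.0 kb upstream had 0 reads in all WT samples and could enter the table only through knockout libraries. The WT sum, the members' medians and the call in Mutyh-/- therefore partly restate that choice of regions. Replicate 1 carried each knockout sum, with 41.3, 35.1 and 40.8, and without it the means were 15.3, 11.5 and 14.7. Mutyh-/- replicate 1 was the highest of its genotype at 5 of 5 member peaks and at 71.3% of all peaks of the table.

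**Figure D4:**
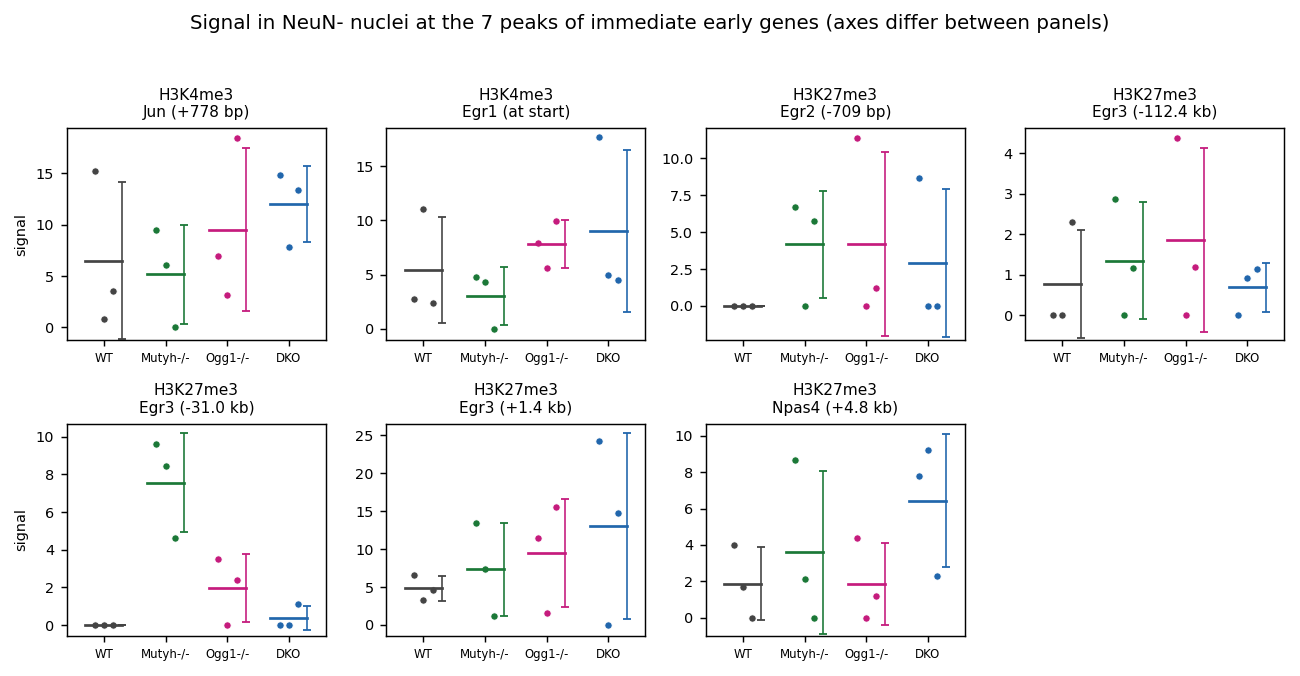
Signal (normalised reads per peak, with a scale for each panel) in NeuN- nuclei at the 2 H3K4me3 and 5 H3K27me3 peaks of the members. Distances are from the annotated transcript start. Points are the 3 replicates of each genotype, thick lines the means and thin bars 1 SD. At the Egr3 peak 31.0 kb upstream the Mutyh-/- samples, at 4.62 to 9.61, stand above all others. How many of all peaks separate in this way was not counted.

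The neuronal H3K4me3 peaks of the members had a median GC content of 62.5% (46.6% to 77.6%), beside 66.6% over all peaks of that table, and a median CpG ratio of 0.73 beside 0.79. The lowest GC was at Egr2 and the highest at the upstream start of Nr4a1. The H3K27me3 peaks of the members had a median GC of 52.6%, the same as all peaks of their table, and those in Pebp4 had CpG ratios of 0.06 and 0.10, beside 0.69 at the Egr3 promoter. None of the 23 windows was more than 39.4% soft-masked repeat.

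Over the 12 neuronal H3K4me3 libraries, centred on each library's median, the correlation of log2 signal between promoter peaks of 2 members had a median of 0.08 over 45 pairs and ran from -0.64 to 0.65, as a description of peaks that share their libraries. The genes whose promoter peak followed the members' mean most closely, of 11150 compared, were Zfp235 (Pearson r = 0.90), Nim1k (0.90) and Pus3 (0.86), and 4.25% of all genes had r over 0.5.

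A wider list of 39 rapid response genes, other activity-induced genes without the members, had 48 neuronal H3K4me3 peaks at 37 genes. Of these, 1 was lower in Mutyh-/- (Jund, an AP-1 subunit, log2 fold change -0.93) and 1 lower in DKO (Inhba, an activin subunit, -1.62), and 0 changed in Ogg1-/-. Over all peaks of this table, 0.911% changed in Mutyh-/-, 0.966% in Ogg1-/- and 1.46% in DKO. The list's median log2 fold change was -0.17 in Mutyh-/-, -0.12 in Ogg1-/- and -0.09 in DKO, beside the medians over all peaks given above. In NeuN- nuclei the list had 14 H3K4me3 peaks, of which 2 were higher in Mutyh-/- (Jund, 2.02, adjusted p = 0.643 in limma, and Nr4a2, a nuclear receptor related to Nr4a1, 2.02), 2 in Ogg1-/- (Nr4a2, 1.84, and Jund, 1.67) and 1 in DKO (Jund, 1.74). The difference of the Jund effect between fractions is not drawn from these values. Of all H3K4me3 peaks in NeuN- nuclei, 2.94%, 3.36% and 2.29% changed in Mutyh-/-, Ogg1-/- and DKO. Their median log2 fold changes were 0.22, 0.25 and 0.05. H3K27me3 was higher in DKO at 1 of 3 peaks in NeuN+ nuclei (Gadd45g, a stress-induced gene, 2.09), where 3.36% of all peaks changed, and at 1 of 4 in NeuN- nuclei (Bdnf, the neurotrophin, 2.31 in Ogg1-/- and 2.29 in DKO). Of all H3K27me3 peaks in NeuN- nuclei, 4.18% changed in Ogg1-/- and 2.30% in DKO, with median log2 fold changes of 0.58 and 0.41. All adjusted p of the named peaks of this list in limma were 0.643 or above.

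Of 20 genes for kinases and factors upstream of the members, 17 had 18 neuronal H3K4me3 peaks. Mapk3, an ERK kinase, was the 1 that changed in each knockout, with log2 fold changes of 1.85 in Mutyh-/-, 1.55 in Ogg1-/- and 1.96 in DKO, and adjusted p of 1.00 in limma. These 3 comparisons share the WT samples. Over all peaks of this table, 0.911%, 0.966% and 1.46% changed in Mutyh-/-, Ogg1-/- and DKO. The list's median was -0.08, 0.09 and -0.12, close to that of all peaks. In NeuN- nuclei 7 H3K4me3 peaks of this list were present and 0 changed in any knockout. Of all peaks there, 2.94%, 3.36% and 2.29% changed in Mutyh-/-, Ogg1-/- and DKO.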

How the data were processed

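ChIP libraries of 3 antibodies in 2 nuclear fractions and 4 genotypes were used; input libraries were left aside. Alignment by the authors was to GRCm38 (mm10) with Bowtie2 2.3.5.1. They then ran epic2 to find regions, retained those that recurred between replicates, and used DiffBind 3.10.1 for counting and ChIPseeker 1.36 for annotation; other tools in the submitters' processing notes were FastQC 0.11.9, SAMtools, SICER and edgeR 3.42.4. The deposited values are signal, meaning that the reads of a 401 bp peak were scaled by 1 factor per library. All were whole multiples of a step within 0.01, so whole reads were recovered. Depth is given with the results; the 95% intervals cover the spread between pools as limma estimates it, and floors of 3 reads cover counting error only.

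edgeR was planned for counts. Scaled signal is not a count, so limma-trend (limma 3.58.1, R 4.3.3) was fitted to log2(value + 1) of all peaks of a table, with its 12 libraries and a genotype term. Fold changes on this scale understate changes of low peaks. A peak was called changed, or passed, if its log2 fold change against WT exceeded 0.5 in size at an unadjusted p under 0.05; adjusted p are Benjamini-Hochberg values over all peaks of a contrast, two-sided. Prior degrees of freedom were infinite in H3K27me3 NeuN-, so a peak's own spread did not enter its p there, and 24.9 and 58.3 in H3K4me3 NeuN+ and NeuN-. The effect difference between fractions was fitted over 24 libraries, taken as independent. Both fractions were collected when nuclei were sorted, so their libraries can share a pool, and the main fit left this pairing out. Alternatives were pseudocounts of 0.5 and 4, a filter, TMM scaling, edgeR 4.0.16, DESeq2 1.42.0, robust variance, a replicate block, the 6 libraries of a contrast alone and leaving out each library. The scripts were tested on simulated counts with increases in DKO only, a common dispersion for each table and no library-wide shifts. That run therefore does not cover the shifts between the real libraries.

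The members and gene lists were chosen with earlier results of these data known. By rule, every member peak is named, with full statistics for those that passed or, where none did, for the smallest p; from the other lists up to 3 peaks with the smallest p among those that passed; and the 3 genes most correlated with the members' mean. A promoter peak is the promoter-annotated peak nearest the start. Positions were checked against GENCODE vM21 and RefSeq sequence of GRCm38.p6; RefSeq promoter windows were matched by symbol for 7 of 10 members.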

Additional observations from a re-analysis of the deposited data

Results flagged for a closer look

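The H3K27me3 peak over a coding exon of Pebp4, 31.0 kb upstream of Egr3, is listed because its non-additive effect passed the definition of changed. That definition uses the unadjusted p, and the effect compares the loss of Ogg1 between mice with and without Mutyh. The non-additive effect was -3.99 on the log2(signal + 1) scale (SE 1.49, adjusted p = 1.00 in limma), against 2.47% of all 1698 peaks that passed. The Mutyh-/- samples held 10, 8 and 4 reads, the Ogg1-/- samples 4, 0 and 2, the DKO samples 0, 0 and 1 and the WT samples 0, 0 and 0. The region could enter the table only through the groups where it was high, so this difference is a description of those reads and no independent test.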

How the results depend on the processing

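Calls at member peaks rest on few reads, and 0 had an adjusted p under 0.05 under any of the alternatives. The shares in parentheses are those of all peaks called in the same fit. In H3K4me3 NeuN+, 0 of 48 comparisons with WT passed as reported (1.11%). There were 2 calls with a pseudocount of 4 (1.19%), limma with TMM factors (4.36%) or edgeR with TMM factors (3.95%), and 1 with DESeq2 (2.93%), robust variance (0.998%), the replicate block (1.44%) or the 6 libraries of a contrast alone (1.12%). Leaving out a library gave 0 to 2, with 1 without WT replicate 2 (1.51%), 2 without DKO replicate 1 (1.55%) and 1 without DKO replicate 3 (1.81%). In H3K27me3 NeuN-, 1 of 15 comparisons passed as reported (2.83%). It was 0 without the lowest 25% of peaks, which removed the Egr3 peak itself and left 2 of the 5, 3 with edgeR and TMM factors (4.10%) and 4 with edgeR and the authors' factors (3.61%), at 2 peaks each. Leaving out a library gave 1 to 2, reaching 2 without Mutyh-/- replicate 2 (2.79%) or Ogg1-/- replicate 2 (5.30%). All these H3K27me3 calls were at the Egr2 peak and the Egr3 peak 31.0 kb upstream, which had 0 reads in all WT samples. Over all 23 peaks, the number of non-additive effects was 1 as reported, 0 under the same filter, 2 with limma and TMM factors, edgeR with the authors' factors or DESeq2, 3 with edgeR and TMM factors, and 1 to 3 when a library was left out, while the shares of all peaks with edgeR and TMM factors were 3.90% in H3K4me3 NeuN+ and 3.77% in H3K27me3 NeuN-. Beyond the filter, the cause of these shifts was not tested. The counts for H3K4me3 NeuN- and for the difference between fractions stayed at 0.

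Same-numbered WT and knockout libraries deviated together with correlations of -0.10 to 0.15 in the tables that hold members. They were not over 0.1 in every pair of any contrast. Such correlations across peaks do not measure a shift of a whole library. Replicate 1 was highest of its genotype at 52.0%, 58.5%, 64.7% and 82.5% of H3K4me3 NeuN- peaks in WT, Mutyh-/-, Ogg1-/- and DKO. In H3K27me3 NeuN- its shares were 43.3%, 71.3%, 50.2% and 59.8%. Whether same-numbered libraries share a batch was not tested. The replicate block moved the H3K4me3 NeuN+ count from 0 to 1 (the Fosb peak 9.7 kb upstream in DKO) and left the H3K27me3 NeuN- count at 1. Over all peaks it raised the called share from 2.86% to 5.23% in H3K4me3 NeuN- and 2.83% to 5.77% in H3K27me3 NeuN-. With a median of 1 to 8 reads per peak in a library of H3K27me3 NeuN-, SEs there were 0.96 to 1.15 on the log2 scale.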
